A study of Mus musculus with 22 samples.

Results

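The proteasome genes of the mouse were followed in the anterior neural tube of embryos whose dams had received arsenic or water. Members were all array probes with a single platform gene symbol that begins with Psm, a letter from a to g and a digit. The rule found 40 of the 10500 probes, 1 probe for each of 40 genes, and all 40 genes matched RefSeq under the same symbol. Of these, 38 encode subunits, assembly chaperones or activators of the proteasome, and 2 (Psmc3ip and Psme3ip1) encode interacting proteins that share only the prefix. The rule used no measured value.

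RNA was measured on 22 one-colour oligonucleotide arrays, 1 sample per array. Every embryo was Folbp2 nullizygous (Folr2-/-), that is, without a membrane folate receptor, so the controls carry the same deletion and no wild-type group is analysed here. Dams were injected intraperitoneally on gestational day (GD) 7 at hour 12 and on GD8 at hour 12, either with water or with sodium arsenate, dosed as 9.6 mg of arsenic per kg. The anterior neural tube was dissected at GD8:15, GD9:00 and GD9:12, which are 3, 12 and 24 h after the second injection. The groups held 4 arsenic and 4 control arrays at GD8:15, 3 arsenic and 4 control arrays at GD9:00, and 4 arsenic and 3 control arrays at GD9:12. The RNA was amplified before labelling, and nothing in the labels ties an array to its own dam, so a p-value here reflects how far these samples spread, which may be technical in part. In tissue RNA of this kind, fewer cells of a type and less RNA per cell cannot be told apart.

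The proteasome degrades proteins that carry ubiquitin chains. Its core particle is a barrel of alpha rings, which gate entry, around beta rings, which hold the proteolytic sites. A regulatory particle caps the barrel: an ATPase ring and further subunits form its base, which unfolds substrates, and a lid removes the ubiquitin. Immunoproteasome beta subunits and the activators Psme1 and Psme2 are induced by interferon, and the transcription factor Nfe2l1 is known to raise the subunit genes together when the proteasome is inhibited. The comparison asks how these genes stood in exposed embryos.

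Promoters are shown for 4 members whose levels differed between stages: Psma7 and Psma5 of the alpha ring and Psmb6 of the beta ring, which were lower at GD9:12, and Psmc6 of the ATPase ring, which was higher. The sequences are from RefSeq (GRCm38.p6) and run from 250 bases before to 50 bases after the annotated start, 5′ to 3′ on the strand of the gene. Capitals mark matches on either strand to the core of the Nfe2l1 and Nfe2l2 element (TGACNNNGC), the NF-Y box (CCAAT) and the GC box (GGGCGG). Psma7 lies at chr2:180042415-180042714 on the minus strand, Psma5 at chr3:108256676-108256975 on the plus strand, Psmb6 at chr11:70525107-70525406 on the plus strand and Psmc6 at chr14:45329574-45329873 on the plus strand.
Psma7: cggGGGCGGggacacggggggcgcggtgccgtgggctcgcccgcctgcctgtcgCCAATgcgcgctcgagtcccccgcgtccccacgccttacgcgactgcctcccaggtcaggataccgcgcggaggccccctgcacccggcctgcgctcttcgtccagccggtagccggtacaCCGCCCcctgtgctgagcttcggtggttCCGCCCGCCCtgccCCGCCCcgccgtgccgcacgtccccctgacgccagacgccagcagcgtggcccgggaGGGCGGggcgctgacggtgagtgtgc
Psma5: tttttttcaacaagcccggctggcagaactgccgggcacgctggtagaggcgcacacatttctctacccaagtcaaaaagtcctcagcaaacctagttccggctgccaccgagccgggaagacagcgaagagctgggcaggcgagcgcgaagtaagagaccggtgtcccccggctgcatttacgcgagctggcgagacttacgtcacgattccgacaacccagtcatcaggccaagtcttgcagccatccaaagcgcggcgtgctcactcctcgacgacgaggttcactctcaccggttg
Psmb6: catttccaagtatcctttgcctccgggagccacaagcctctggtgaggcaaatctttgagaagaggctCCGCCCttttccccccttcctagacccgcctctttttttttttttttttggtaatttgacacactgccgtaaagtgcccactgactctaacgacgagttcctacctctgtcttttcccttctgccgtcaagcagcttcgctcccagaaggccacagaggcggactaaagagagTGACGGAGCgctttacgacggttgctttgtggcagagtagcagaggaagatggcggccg
Psmc6: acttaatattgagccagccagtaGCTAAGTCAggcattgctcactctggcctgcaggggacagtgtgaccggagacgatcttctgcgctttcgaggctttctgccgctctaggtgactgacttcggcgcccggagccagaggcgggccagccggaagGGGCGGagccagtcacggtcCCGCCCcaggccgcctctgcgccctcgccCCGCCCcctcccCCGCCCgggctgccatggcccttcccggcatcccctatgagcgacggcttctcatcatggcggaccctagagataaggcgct
Psma7 held 6 GC boxes, 2 of which overlap, and 1 NF-Y box, at bases 55 to 59. Psma5 held none of these motifs in this window. Psmb6 held the element core at bases 242 to 250, next to the annotated start, and 1 GC box. Psmc6 held the core on the opposite strand, at bases 24 to 32, and 4 GC boxes.

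Of the 38 genes looked up, 33 had promoters in the RefSeq table, 35 promoters in all. The genes without an entry were Psmb1, Psmb7, Psmc3, Psmd7 and Psmg2. The Nfe2l1 element core stood in 5 of the 35 promoters (14.3%), those of Psmb5, Psmb6, Psmc6, Psmd9 and Psmd12, against 12.4% of all 32851 promoters. The NF-Y box stood in 12 (34.3%) against 37.4% of all promoters, and the GC box in 21 (60%) against 35.7%. An interferon-type element (TTCNNNGAA) stood in 3 (8.57%) against 8.30%. A match is a description of letters and not a site.

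Values are log2 intensities after quantile normalisation, which gives all arrays 1 distribution, unless the authors' scaling (values as deposited) or median centring (each array set to a common median) is named. Of the 40 members, 35 passed the filter on low signal, which was fixed over all probes and asked for values in every group and a mean above the lowest 25% of probes (a log2 intensity of 7.20). All 7 alpha subunits, 6 of 6 constitutive beta subunits, 5 of 5 ATPases, 3 of 3 further base subunits, 6 of 6 lid subunits, 3 of 3 base chaperones and 2 of 2 core chaperones passed. Of the 3 immunoproteasome subunits, Psmb10 passed. Psmb8 lay between 6.91 and 7.53 on all 22 arrays and Psmb9 between 6.93 and 7.30, at the dim end of the array in both arms and at every stage. Psmc3ip lay between 6.86 and 7.48 and Psme3ip1 between 6.96 and 7.40. Psme1 had a measured value on 8 of 22 arrays, namely all 4 arsenic and 3 control arrays at GD8:15 and 1 control array at GD9:12, and could not be compared between stages. Its values at GD8:15 were 9.22, 7.78, 11.78 and 9.19 on the arsenic arrays, against 10.26, 9.46 and 9.32 on the control arrays, and they overlapped.

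**Figure D1:**
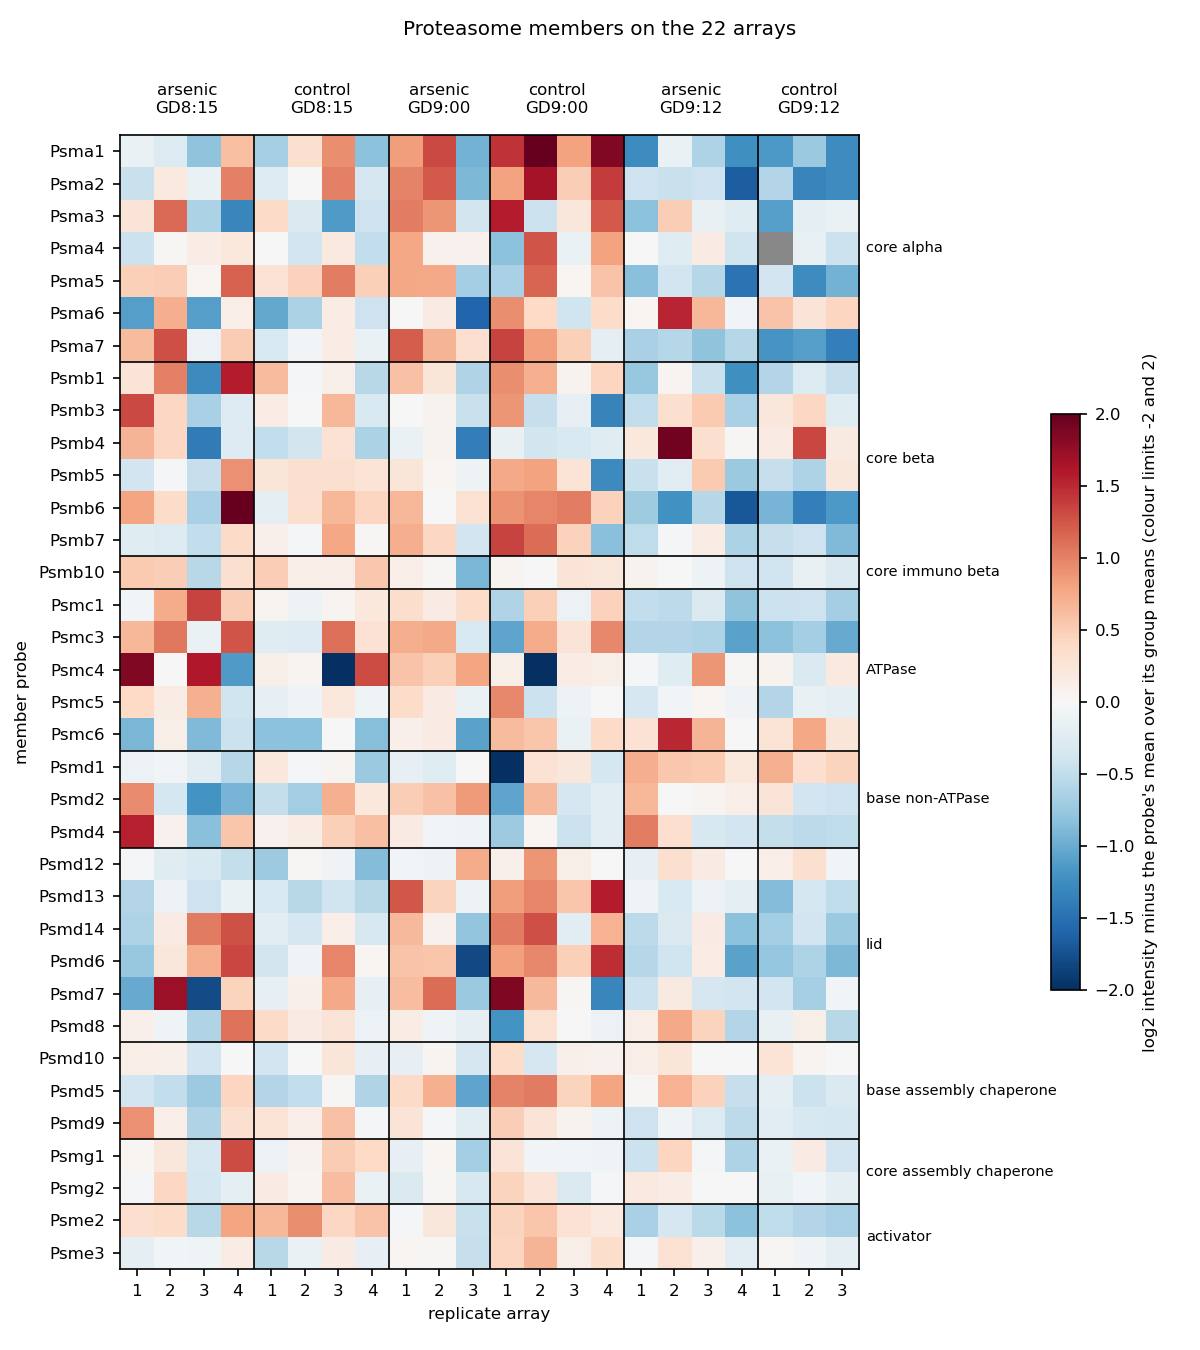
Each cell is the normalised log2 intensity of 1 of the 35 members that passed the filter (rows, grouped by role) on 1 of the 22 arrays (columns, grouped by stage and arm), as the difference from the mean of that probe over its group means. Grey is a missing value (Psma4 on 1 control array at GD9:12). Psma1 and Psma2 stand high on the control arrays of GD9:00 and low in both arms at GD9:12, while Psmb4 and Psmd1 stand high in both arms at GD9:12.

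No member differed between arsenic and control embryos past the test at any stage. With limma, 0 of 35 members passed an adjusted p of 0.05 at GD8:15, GD9:00 or GD9:12, in the average over the 3 stages, in any difference of the arsenic effect between 2 stages or in the F test over them. The same held for all 7833 probes tested, of which 0% were called in each of these comparisons. The lowest adjusted p of a member was 0.620 at GD8:15, 0.267 at GD9:00 and 1.00 at GD9:12. Standard errors limited what could be seen: the median over all tested probes was 0.18 at the first stage and 0.20 at both later stages. Most members whose standard errors are given below had larger ones, and Psmc4 had 0.96 or more at every stage.

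At an unadjusted p of 0.05, 2 members stood out at GD8:15 (Psma7 and Psmc1, 5.71% of members against 7.29% of all probes). At GD9:00 there were 4 (Psma1, Psmd5, Psmd6 and Psme3, 11.4% against 12.6%), and at GD9:12 there were 0 (0% against 1.28%). The average over the stages gave 2 (Psma7 and Psme2) against 5.72% of probes, and the F test gave 2 (Psmd5 and Psme3) against 6.43%. The difference of the arsenic effect between stages gave 2 for GD9:00 minus GD8:15 (Psmd14 and Psme3, 8.18% of probes), 3 for GD9:12 minus GD9:00 (Psmd5, Psmd13 and Psme3, 6.40%) and 0 for GD9:12 minus GD8:15 (4.15%).

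Psma7, an alpha-ring subunit, gave the lowest p of the members at GD8:15 and at GD9:12. At GD8:15 it read 10.48, 11.13, 9.73 and 10.35 on the arsenic arrays, against 9.54, 9.79, 9.99 and 9.71 on the control arrays. At GD9:00 it read 11.05, 10.53 and 10.19 on the arsenic arrays, against 11.20, 10.67, 10.31 and 9.65 on the control arrays. At GD9:12 it read 9.20, 9.28, 9.04 and 9.28 on the arsenic arrays, against 8.67, 8.74 and 8.48 on the control arrays. The arms overlapped at the first and second stage and not at GD9:12, where every arsenic array was above every control array. The differences were 0.67 ± 0.28 at GD8:15, 0.13 at GD9:00 and 0.57 ± 0.30 at GD9:12 (log2, standard error), with limma adjusted p = 0.620 and 1.00 at the first and last stage. The average over the stages was 0.45 ± 0.17, a 1.37-fold higher level in arsenic embryos with adjusted p = 0.865. It passed the test with arrays weighted by their quality (0.69, adjusted p = 0.0244), and its adjusted p ran from 0.195 to 1.00 in the other alternatives, the left-out arrays included.

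At GD9:12, 4 members had arms that did not overlap, all higher in arsenic embryos (11.4% of members, against 5.00% of all probes in either direction). Besides Psma7 these were Psmd4, Psmd13 and Psmg2. Psmd4, a receptor for ubiquitin chains, read 12.36, 11.67, 11.01 and 10.95 on the arsenic arrays, against 10.86, 10.82 and 10.83 on the control arrays, a difference of 0.66 ± 0.40. Psmd13, a lid subunit, read 8.43, 8.21, 8.39 and 8.33 on the arsenic arrays, against 7.64, 8.16 and 8.00 on the control arrays, a difference of 0.40 ± 0.25. Psmg2, a chaperone of core assembly, differed by 0.22 ± 0.19. None of the 4 passed the test (limma adjusted p = 1.00 each), and at GD8:15 the arms of 0 members were apart against 3.84% of probes.

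At GD9:00 the arms of 2 members did not overlap, against 9.64% of all probes. Psme3, the activator of the nuclear proteasome, read 7.46, 7.44 and 6.97 on the arsenic arrays, against 7.85, 8.11, 7.53 and 7.77 on the control arrays. Its difference was -0.53 ± 0.17 (adjusted p = 0.267), but 0.026 under the authors' scaling, where the median of all probes was itself 0.43 higher in arsenic embryos. Psmc4, an ATPase, read 12.75, 12.66 and 12.97 on the arsenic arrays, against 12.31, 9.51, 12.33 and 12.29 on the control arrays. The control array at 9.51 lay in a stretch of neighbouring probe numbers with low signal, as did the lowest Psmc4 value at GD8:15 in each arm (11.05 on an arsenic array and 7.58 on a control array). With values in such stretches set to missing, the difference of Psmc4 at GD9:00 was 0.48 instead of 1.18.

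Psma1 of the alpha ring, the base chaperone Psmd5 and the lid subunit Psmd6 were the other members with an unadjusted p under 0.05 at GD9:00. Psma1 read 10.61, 11.10 and 8.84 on the arsenic arrays, against 11.22, 12.31, 10.59 and 11.63 on the control arrays. Psmd5 read 9.85, 10.17 and 8.41 on the arsenic arrays, against 10.45, 10.51, 9.92 and 10.26 on the control arrays. Psmd6 read 10.48, 10.46 and 8.09 on the arsenic arrays, against 10.73, 10.87, 10.38 and 11.39 on the control arrays. In each of the 3, arsenic replicate 3 was the lowest array of both arms. The differences were -1.25 ± 0.52, -0.81 ± 0.35 and -1.16 ± 0.52, with adjusted p = 0.357, 0.366 and 0.372. Without replicate 3 of the arsenic arm at GD8:15 and at GD9:00, Psma1 differed by -0.58 and Psmd5 by -0.27.

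The other members with the lowest p in a direction were these. Psmc1, an ATPase, read 8.24, 9.04, 9.64 and 8.79 on the arsenic arrays at GD8:15, against 8.35, 8.20, 8.35 and 8.51 on the control arrays, a difference of 0.57 ± 0.24 (adjusted p = 0.623). Psmd14, the deubiquitinase of the lid, read 7.71, 8.48, 9.36 and 9.59 on the arsenic arrays at GD8:15, against 8.10, 7.99, 8.46 and 7.99 on the control arrays, a difference of 0.65 ± 0.39. Psmd2, a base scaffold, read 11.01, 11.12 and 11.38 on the arsenic arrays at GD9:00, against 9.48, 11.18, 10.19 and 10.32 on the control arrays, a difference of 0.88 ± 0.44. The arms overlapped in each. Psmb7, the trypsin-like beta subunit, read 8.65, 8.62, 8.40 and 9.28 on the arsenic arrays at GD8:15, against 8.99, 8.86, 9.67 and 8.90 on the control arrays. Psmg2 read 7.84, 8.29, 7.52 and 7.69 on the arsenic arrays of that stage, against 8.04, 7.93, 8.50 and 7.74 on the control arrays. Both overlapped.

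At GD9:12, Psmb3 of the beta ring read 9.76, 10.57, 10.77 and 9.59 on the arsenic arrays, against 10.48, 10.66 and 10.01 on the control arrays. Psmb1 of the same ring read 10.09, 10.91, 10.41 and 9.64 on the arsenic arrays, against 10.27, 10.59 and 10.39 on the control arrays. Psmd12, a lid subunit, read 12.08, 12.56, 12.41 and 12.24 on the arsenic arrays, against 12.38, 12.57 and 12.19 on the control arrays. The arms overlapped in each. Psmb7 and Psmg2 at GD8:15 (-0.37 and -0.22), and Psmb3, Psmb1 and Psmd12 at GD9:12 (-0.21, -0.15 and -0.058), were lower with adjusted p of 0.934 or more.

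The interferon-inducible members showed no arsenic difference past the test. Psmb10 read 9.77, 9.75, 8.70 and 9.57 on the arsenic arrays at GD8:15, against 9.75, 9.38, 9.39 and 9.79 on the control arrays. At GD9:00 it read 9.38, 9.27 and 8.33 on the arsenic arrays, against 9.30, 9.24, 9.50 and 9.48 on the control arrays. At GD9:12 it read 9.33, 9.24, 9.16 and 8.83 on the arsenic arrays, against 8.85, 9.10 and 8.97 on the control arrays. The arms overlapped at every stage. Psmb10 differed by -0.13 ± 0.23 at GD8:15 and by -0.38 ± 0.25 at GD9:00 (adjusted p = 0.992 and 0.549). Psme2 differed by -0.41 ± 0.21 at GD8:15 and by -0.46 ± 0.23 at GD9:00 (adjusted p = 0.751 and 0.410). The 6 interferon-response genes on the array, 2 of which passed the filter, summed to 1157 to 1785 on arsenic arrays and 1192 to 1618 on control arrays over all stages.

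**Figure D2:**
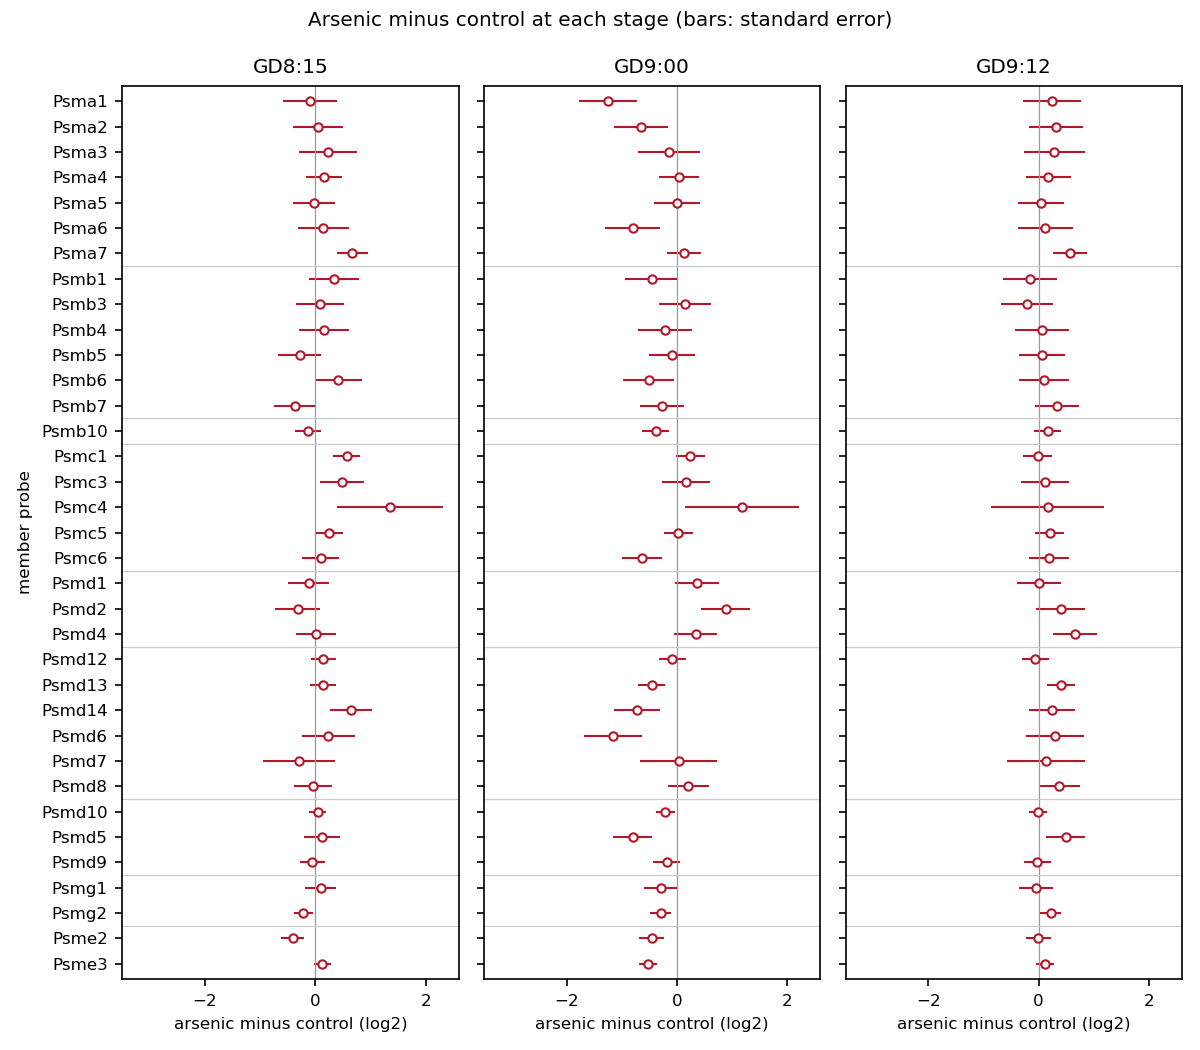
Points are the difference of arsenic minus control group means (log2) for each of the 35 members at GD8:15, GD9:00 and GD9:12, with bars of 1 standard error from limma, in the same row order as the map of deviations. Open points did not pass an adjusted p of 0.05, and no point is filled. At GD9:12, 27 of 35 points lie to the right of 0, and at GD9:00, 13 do.

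The members were also described as groups. The median arsenic difference over the 35 members was 0.10 at GD8:15, -0.21 at GD9:00 and 0.16 at GD9:12, against medians of 0.00050, 0.0060 and -0.013 over all probes. It was above 0 for 23, 13 and 27 members at these stages, against 50.1%, 51.0% and 46.2% of probes. For the 14 core members the medians were 0.11, -0.24 and 0.14, and for the 14 members of the regulatory particle 0.14, 0.10 and 0.20. Single arrays set the sign of the core median at GD8:15 and GD9:00. At GD8:15 its lowest value was -0.094, with arsenic replicate 4 left out, and its highest 0.27, with control replicate 3 left out. The lowest value at GD9:00 was -0.45, when arsenic replicate 1 was dropped, and the highest 0.032, when arsenic replicate 3 was. It was -0.48 at GD9:00 with stretches of low signal masked. All 5 ATPases were above 0 at GD8:15 under the 3 scalings tried, with a median of 0.49 after quantile normalisation, 0.47 under the authors' scaling and 0.23 after median centring. Relative to all probes the ATPase median was 0.49, 0.26 and 0.26. All 7 alpha subunits were above 0 at GD9:12, with a median of 0.24, and 6 of 7 after median centring. All 7 chaperones and activators were below 0 at GD9:00, with a median of -0.30, but 2 of 7 under the authors' scaling. These medians depend on the scaling, which acts on all probes: relative to the median of all probes, the member median at GD8:15 was 0.10 after quantile normalisation and -0.024 under the authors' scaling and under median centring. At GD9:00 it was -0.21, -0.51 and -0.51, and at GD9:12 it was 0.17, 0.18 and 0.18 in the same order of settings. The regulatory median at GD9:00 changed sign: relative to all probes it was 0.093 after quantile normalisation and -0.30 under both other scalings. Without control replicate 1 of GD9:00 the regulatory median itself was -0.12, against 0.10 with all arrays.

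The level of each particle was also summarised per array, as the mean of its members' deviations from their own means over the 6 groups. The core stood at 0.16, 0.43, -0.58 and 0.53 on the arsenic arrays of GD8:15, against -0.05, -0.01, 0.38 and -0.17 on the control arrays. At GD9:00 it stood at 0.56, 0.43 and -0.54 on the arsenic arrays, against 0.67, 0.73, 0.22 and 0.25 on the control arrays. At GD9:12 it stood at -0.47, 0.08, -0.10 and -0.78 on the arsenic arrays, against -0.48, -0.40 and -0.54 on the control arrays. The arms overlapped at every stage, and the arsenic arms were more scattered, with SDs of 0.50, 0.60 and 0.38 against 0.24, 0.27 and 0.07 in controls. The spread of the arms was not tested.

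In the arsenic arms of GD8:15 and GD9:00, 1 array each had a core value below 0, and at GD9:12 3 of 4 did. Replicate 3 at GD8:15 had the highest median log2 signal of all arrays before normalisation (8.18, against 7.46 to 7.78 on the other arsenic arrays of that stage) and the lowest mean correlation with its own group (0.889). Replicate 3 at GD9:00 had a median of 7.64, against 7.58 and 7.26 on the other arsenic arrays of that stage. After group means were removed, the core value correlated with the array's median signal at r = -0.62 over the 22 arrays. The value of the regulatory particle did so at r = -0.42, and both are given as descriptions. The part of the signal distribution in the values of either particle was not tested.

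The mean deviation of the regulatory particle was 0.11 ± 0.13 in arsenic and -0.11 ± 0.080 in control embryos at the first stage, 0.17 ± 0.31 in arsenic and 0.15 ± 0.17 in control embryos at the second, and -0.048 ± 0.21 in arsenic and -0.27 ± 0.065 in control embryos at the last (SD, n as in the groups). At the first and last stage the arsenic mean was above the control mean by more than the SD of either arm, and the arrays of the arms overlapped at every stage. No test was run on these means. The core minus the regulatory particle was 0.022 ± 0.37 in arsenic and 0.15 ± 0.20 in control embryos at the first stage, -0.026 ± 0.29 and 0.32 ± 0.30 at the second, and -0.27 ± 0.20 and -0.20 ± 0.013 at the last. On the control arrays the balance was -0.21 to -0.19 at GD9:12, against 0.00 to 0.70 at GD9:00, without overlap. The arsenic arrays of these stages overlapped through replicate 3 of GD9:00 alone. They read 0.15, 0.14 and -0.36 at GD9:00, against -0.44 to -0.013 at GD9:12. After group means were removed, the median correlation between members over the 22 arrays was 0.37 for the 91 pairs of core members, 0.06 for the 91 pairs within the regulatory particle and 0.21 for the 196 pairs across them. The per-array values of the core and the regulatory particle, treated the same way, correlated at r = 0.79. Members share arrays and normalisation, so these values are descriptions.

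**Figure D3:**
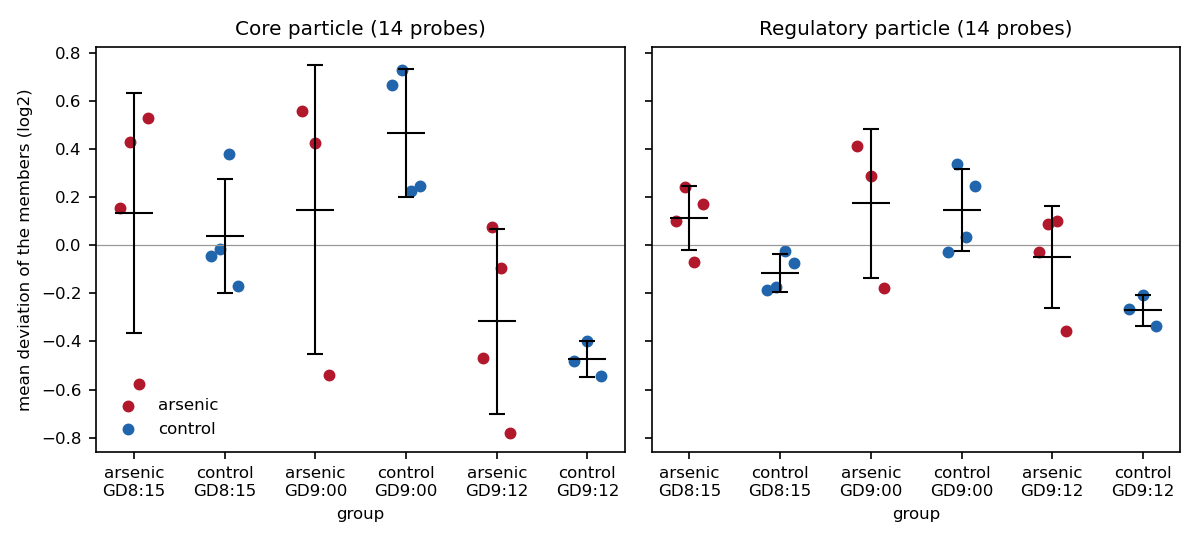
Each point is 1 array, placed at the mean deviation (log2) of the 14 core members (left) or the 14 regulatory-particle members (right), by group in stage order with arsenic in red and control in blue. The black dash is the group mean and the bar its SD over arrays. The 3 control arrays of GD9:12 lie between -0.54 and -0.40 for the core, below every control array of the earlier stages.

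Single members differed between stages past the test. Over the 6 stage comparisons there were 23 calls of members, 18 of them lower at the later stage. In all 23 the direction was the same under the 3 scalings, and 12 passed the test under all 3. Stage is tied to the authors' scaling, which set the mean intensity of an array near 600, 500 and 1000 in stage order, and partly to series of codes in the sample titles whose meaning is not stated. All 4 arsenic arrays of GD8:15 belong to 1 code series and all later arsenic arrays to another, so code series and stage cannot be told apart there. Of the GD8:15 arrays, control replicate 3 alone shares its series with later arrays. A fit with the code series as a block compares GD8:15 with later stages through that array, so its split of code series from stage rests on 1 array.

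Between GD8:15 and GD9:00, 4 of 35 control members rose (11.4%, against 15.0% of all probes) and none fell: Psma1, Psmd5, Psmd13 and Psme3. Psmd13 read 9.34, 9.49, 9.07 and 10.08 on the control arrays at GD9:00, against 8.21, 7.96, 8.10 and 7.95 at GD8:15. Every later array was above every earlier one, a difference of 1.44 ± 0.23 (2.71-fold, limma adjusted p = 0.000658). Psma1 was higher by 1.71 ± 0.49 (3.28-fold, adjusted p = 0.0240), Psmd5 by 1.23 ± 0.33 (2.35-fold, 0.0178) and Psme3 by 0.57 ± 0.16 (1.48-fold, 0.0221), though Psme3 by 0.059 under the authors' scaling (adjusted p = 0.832). Under that scaling the split was 3 higher and 4 lower, against 168 higher and 2575 lower of all probes. In arsenic embryos the same step called 0 members (0% against 4.21% of probes, with 2 at an unadjusted p of 0.05, against 17.9% of probes), Psmd13 being 0.84 ± 0.25 higher with adjusted p = 0.0666. The control count was 1 without control GD8:15 replicate 1 or 4, 2 without control GD9:00 replicate 2, and 0 with the code series as a block.

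Between GD9:00 and GD9:12, 8 of 35 control members fell (22.9%, against 11.3% of all probes called and 7.44% called lower) and none rose. Of these, 4 belong to the core: Psma1, Psma2 and Psma7 of the alpha ring, and Psmb6, which carries the caspase-like site. The others were the lid subunits Psmd6 and Psmd13, the chaperone Psmd5 and the activator Psme2. In arsenic embryos 1 member, Psma7, was called in the same step (2.86%, against 3.88% of probes), and it was lower. The difference between the arms in this step was not past the test for any member (adjusted p of 0.766 or more).

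Psma1 read 8.64, 9.03 and 8.52 on the control arrays at GD9:12, against 11.22, 12.31, 10.59 and 11.63 at GD9:00. The difference was -2.71 ± 0.52, a 6.54-fold lower level (adjusted p = 0.00307). Psma2 read 9.41, 8.68 and 8.73 at GD9:12, against 10.79, 11.66, 10.49 and 11.40 at GD9:00, 4.42-fold lower (adjusted p = 0.00920). Psmd13 fell back with a difference of -1.56 ± 0.25, 2.95-fold lower (adjusted p = 0.000783). In each of these the groups did not overlap.

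Psmb6 read 10.96, 10.55, 9.53 and 12.57 on the arsenic arrays of GD8:15, against 9.99, 10.51, 10.85 and 10.61 on the control arrays. At GD9:00 it read 10.85, 10.18 and 10.48 on the arsenic arrays, against 11.07, 11.15, 11.20 and 10.63 on the control arrays. At GD9:12 it read 9.46, 8.97, 9.61 and 8.49 on the arsenic arrays, against 9.25, 8.82 and 9.03 on the control arrays. All 7 arrays of GD9:12 lay below all 7 arrays of GD9:00. The difference GD9:12 minus GD9:00 was -1.98 ± 0.46 in controls (adjusted p = 0.0101), and GD9:12 minus GD8:15 was -1.77 ± 0.43 in arsenic embryos (adjusted p = 0.00968) and -1.46 ± 0.46 in controls (adjusted p = 0.0610). Of the 3 scalings, the arsenic difference passed after quantile normalisation alone.

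The calls at this step depended on the scaling. After median centring the split of control calls was again 0 higher and 8 lower, but under the authors' scaling, which puts all probes 0.79 higher in the median in this step, it was 12 higher and 5 lower. Under that scaling 71.7% of all probes were called in this step, 5506 higher and 103 lower, and after median centring 745 higher and 619 lower. Psma1, Psma2, Psma7, Psmb6 and Psmd13 were called lower under all 3 scalings, Psmb6 with -1.13 under the authors' scaling. In arsenic embryos the split was 0 higher and 1 lower after quantile normalisation, 11 and 0 under the authors' scaling, and 1 and 0 after median centring. Of all probes it was 149 and 155, 1805 and 11, and 665 and 100 in the same order. With the code series as a block, 6 of the 8 control calls were kept (Psma1, Psma2, Psma7, Psmb6, Psmd13 and Psme2). The control count was 5 without control GD9:12 replicate 3. The arsenic count was 0 without arsenic GD9:00 replicate 1, 3 without replicate 3 of the arsenic arm at GD8:15 or at GD9:00, and 6 without both.

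Over the whole interval, GD9:12 minus GD8:15, 7 of 35 members were called in arsenic embryos, against 13.8% of all probes, and 3 in controls, against 7.71%. Psma5, Psma7 and Psme2 were lower in both arms. Psmb6, Psmc1 and Psmc3 were lower and Psmc6 higher past the test in arsenic embryos. The arms share no array in this comparison, and 29 of 35 members had the same sign in both (82.9%, against 74.5% of all probes), 21 lower and 8 higher.

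Psme2, the interferon-inducible activator subunit, was lower in both arms over the interval. At GD8:15 it read 8.44, 8.47, 7.55 and 8.89 on the arsenic arrays, against 8.77, 9.04, 8.51 and 8.68 on the control arrays. At GD9:00 it read 8.07, 8.34 and 7.66 on the arsenic arrays, against 8.56, 8.66, 8.40 and 8.31 on the control arrays. At GD9:12 it read 7.46, 7.78, 7.57 and 7.29 on the arsenic arrays, against 7.60, 7.53 and 7.46 on the control arrays. The control groups of the first and last stage did not overlap, and in the arsenic arm replicate 3 of GD8:15 reached into the later range. GD9:12 minus GD8:15 was -0.82 ± 0.21 in arsenic embryos and -1.22 ± 0.23 in controls (1.76- and 2.33-fold lower, adjusted p = 0.0157 and 0.00331). It passed under all 3 scalings in both arms. With the code series as a block, a fit that hangs on control GD8:15 replicate 3 here, it did not pass (limma adjusted p = 0.894 and 0.291).

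Psma7 was 2.34-fold lower at GD9:12 than at GD8:15 in arsenic embryos and 2.18-fold lower in controls (adjusted p = 0.00751 and 0.0282), and 2.62-fold lower than at GD9:00 in arsenic embryos and 3.55-fold lower in controls (adjusted p = 0.0162 and 0.00113). Only the control difference from GD9:00 passed under all 3 scalings, and the rest passed after quantile normalisation alone. Psma5 read 10.60, 11.06, 10.86 and 9.97 on the arsenic arrays at GD9:12, against 11.91, 11.94, 11.48 and 12.61 at GD8:15. In controls it read 11.05, 10.19 and 10.49 at GD9:12, against 11.73, 11.90, 12.47 and 11.92 at GD8:15. The stages did not overlap in either arm, and the differences were -1.36 ± 0.38 and -1.43 ± 0.41 (adjusted p = 0.0237 and 0.0406). Under the authors' scaling they were -0.33 and -0.47, and neither passed.

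In the ATPase ring the members went different ways. Psmc6 read 8.47, 9.69, 8.85 and 8.19 on the arsenic arrays at GD9:12, against 7.27, 8.30, 7.30 and 7.75 at GD8:15. In controls it read 8.45, 8.95 and 8.43 at GD9:12, against 7.36, 7.36, 8.18 and 7.33 at GD8:15. The control stages did not overlap, and the arsenic stages did by 1 array. The differences were 1.14 ± 0.33 and 1.05 ± 0.36 (2.21- and 2.07-fold higher), and the first passed under all 3 scalings (adjusted p = 0.0288) and the second under the authors' scaling (0.00457, against 0.0856 after quantile normalisation).

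The other control members with the lowest p on the higher side over this interval were Psmd12 and Psma6. Psmd12 read 12.38, 12.57 and 12.19 on the control arrays at GD9:12, against 11.51, 12.27, 12.17 and 11.38 at GD8:15, a difference of 0.55 ± 0.25 (adjusted p = 0.207). Psma6 of the alpha ring read 9.30, 8.98 and 9.15 on the control arrays at GD9:12, against 7.70, 8.09, 8.88 and 8.32 at GD8:15, a difference of 0.90 ± 0.50 (adjusted p = 0.314). Psma6 did not overlap between the stages and Psmd12 did, and neither passed the test.

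Psmc1 read 7.80, 7.77, 8.01 and 7.50 on the arsenic arrays at GD9:12, against 8.24, 9.04, 9.64 and 8.79 at GD8:15, without overlap. Its difference of -1.16 ± 0.24 (2.23-fold lower, adjusted p = 0.00411) passed under all 3 scalings. In controls it was -0.57 ± 0.26 (adjusted p = 0.218). Psmc3 read 8.70, 8.71, 8.67 and 8.22 on the arsenic arrays at GD9:12, against 9.95, 10.34, 9.16 and 10.56 at GD8:15, a difference of -1.43 ± 0.40 (adjusted p = 0.0238), and passed after quantile normalisation alone of the 3 scalings. With the code series as a block, 0 of the 7 arsenic calls and 0 of the 3 control calls over this interval were kept. That fit hangs on control GD8:15 replicate 3 here, so the loss does not show what the code series contributes. The arsenic count was 4 without arsenic GD8:15 replicate 4. The control count was 1 without control GD8:15 replicate 2 or 4 or control GD9:12 replicate 2 or 3, and 6 without both arsenic arrays of replicate 3.

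**Figure D4:**
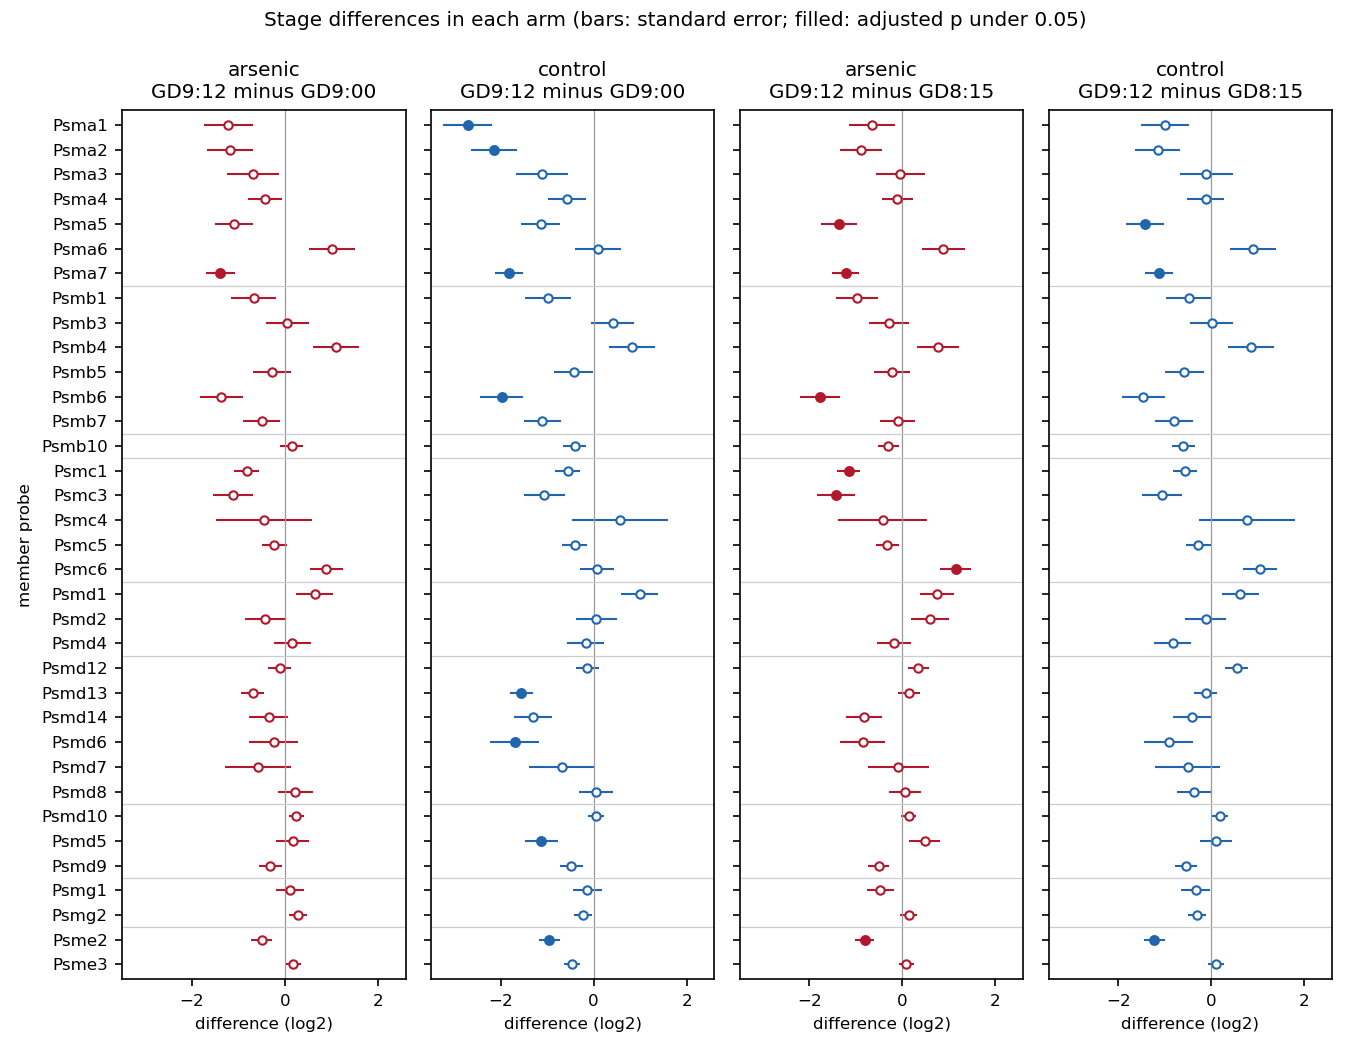
Points are stage differences (log2) with bars of 1 standard error for each of the 35 members, GD9:12 minus GD9:00 in the left pair of panels and GD9:12 minus GD8:15 in the right pair, with arsenic (red) left of control (blue). Filled points passed an adjusted p of 0.05 with limma after quantile normalisation. Psma5, Psma7 and Psme2 are filled on the lower side in both right-hand panels.

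The median of all members over the interval was -0.23 in arsenic embryos and -0.36 in controls, against -0.036 and -0.013 for all probes. Relative to all probes it was -0.20 in arsenic embryos after quantile normalisation but 0.18 under the authors' scaling and under median centring, so the direction of the group depended on the scaling. In controls it stayed below, at -0.35, -0.13 and -0.12. The split of arsenic calls was 1 higher and 6 lower after quantile normalisation, 7 and 2 under the authors' scaling, and 3 and 2 after median centring. Of all probes it was 566 and 516, 1256 and 134, and 1157 and 434. The split of control calls was 0 and 3, 5 and 1, and 1 and 1 in the same order. Of all probes it was 295 and 309, 1323 and 98, and 726 and 248.

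**Figure D5:**
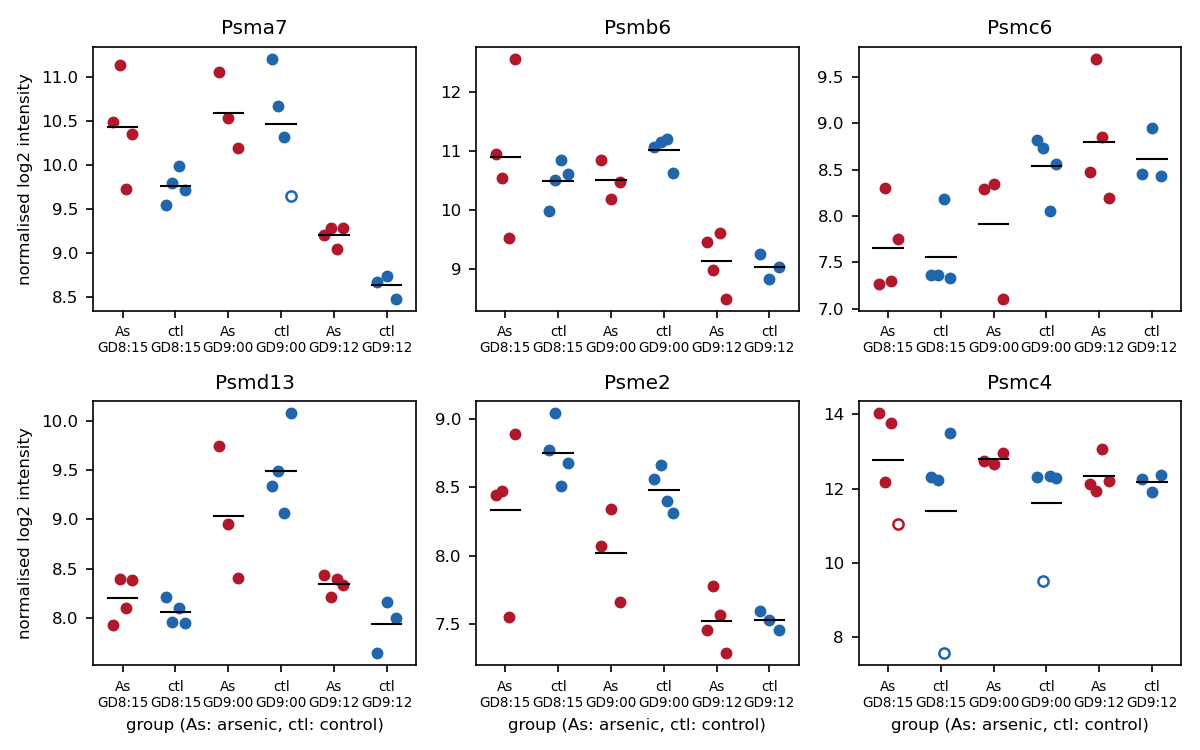
Each point is the normalised log2 intensity of 1 probe on 1 array, by group in stage order with arsenic (As, red) left of control (ctl, blue), and the line is the group mean. Open circles are values in stretches of neighbouring probe numbers with low signal. The axes differ between panels and do not start at 0. Psma7 and Psmb6 are low in both arms at GD9:12, Psmd13 is high at GD9:00, and the low Psmc4 values of the controls are open circles.

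Genes that act with the proteasome without being members were followed as a list of 38 symbols, of which 22 were on the array and 20 passed the filter. Arsenic called 0 of the 20 at any stage. At an unadjusted limma p of 0.05 there were 3, 3 and 0, against 7.29%, 12.6% and 1.28% of all probes. At GD8:15 these were Nfe2l1 (0.25 ± 0.08, adjusted p = 0.516), Sqstm1 (1.09 ± 0.38, 0.544) and Faf1 (-0.85 ± 0.37, 0.628). At GD9:00 they were Akirin2 (-0.66 ± 0.23, 0.281), Derl2 (-0.43 ± 0.17, 0.334) and Zfand5 (1.01 ± 0.48, 0.392). Pomp, the chaperone of core assembly that is used up as the barrel closes, read 8.47, 8.55, 8.65 and 8.34 on the arsenic arrays of GD9:12, against 11.31, 10.87, 9.28 and 11.04 on those of GD8:15. In controls it read 8.32, 8.51 and 8.48 at GD9:12, against 10.01, 10.51, 11.46 and 10.55 at GD8:15. The stages did not overlap in either arm, and the differences were -2.12 ± 0.37 and -2.19 ± 0.40 (adjusted p = 0.00109 and 0.00275), past the test under all 3 scalings. Akirin2, which helps carry the proteasome into the nucleus, was higher by 1.94 ± 0.21 and 1.76 ± 0.23 over the same interval in arsenic and control embryos (adjusted p = 2.89e-05 and 0.000164), also under all 3 scalings.

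Nfe2l1 read 7.73, 7.80 and 7.74 on the arsenic arrays at GD9:00, against 7.44, 7.31, 7.41 and 7.24 at GD8:15, and 7.83, 7.86, 7.81 and 7.70 on the control arrays at GD9:00, against 7.12, 7.16, 7.18 and 6.94 at GD8:15. The control values at GD8:15 lay below the cut of the filter on low signal (7.20), and the arsenic ones of that stage just above it. The differences of 0.40 ± 0.09 and 0.70 ± 0.08 passed the test (adjusted p = 0.0132 and 3.96e-05), and under the authors' scaling they were 0.064 and 0.20 and did not. After median centring the control difference passed and the arsenic one did not (adjusted p = 0.136). Over the 20 genes, GD9:12 minus GD8:15 called 2 higher and 1 lower in arsenic embryos and 1 higher and 1 lower in controls. Under the authors' scaling the counts were 8 and 1, and 7 and 1. Of all probes 566 and 516, and 295 and 309, were called higher and lower after quantile normalisation. Under the authors' scaling these were 1256 and 134, and 1323 and 98.

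Markers of the tissue and of its neighbours were read on the same arrays. All 12 neural tube markers on the array passed the filter. Their summed intensity, on a linear scale after quantile normalisation, ran from 8618 to 14957 on arsenic and 11249 to 13422 on control arrays at GD8:15. At GD9:00 it ran from 10645 to 13790 and from 10842 to 14950. At GD9:12 it ran from 15816 to 20441 and from 18904 to 22462, above every earlier array. The other lists were summed the same way. The 8 heart markers on the array, 5 of which passed, summed to 4638 to 11087 on the arsenic arrays of GD8:15, against 16070 to 34285 on the control arrays. At GD9:12 they summed to 2115 to 3475 on arsenic and 2184 to 3988 on control arrays. The 5 blood markers summed to 17683 to 49644 and 16039 to 45470 at GD9:12, against 3774 to 27185 and 4797 to 8268 at GD8:15. At GD9:00 heart markers summed to 8446 to 22909 on arsenic and 3656 to 19182 on control arrays. Blood markers summed to 2020 to 3898 and 867 to 6761 there. Bright probes weigh most in these sums: Hba-a1 (mean log2 12.8) in blood, Actc1 (11.6) and Myl7 (11.2) in heart. Heart signal was thus lower, and neural tube and blood signal higher, at GD9:12 beside the stage differences of the members. The ranges overlapped for blood between arsenic GD8:15 and GD9:12, and for heart between control GD9:00 and GD9:12. The part of neural tube, heart and blood signal in the result was not tested. Xist read 7.86 to 9.06 on arsenic and 7.02 to 7.10 on control arrays at GD8:15, and 9.77 to 10.35 against 7.10 to 8.71 at GD9:00, without overlap between the arms. At GD9:12 it read 6.93 to 7.15 on arsenic arrays, against 11.34, 6.99 and 6.88 on control arrays. Arsenic minus control in stage order was 1.36, 2.53 and -1.34 for Xist. It was -0.50, -0.41 and 0.38 for the Y-linked Eif2s3y, and -0.11, 0.91 and -0.64 for the Y-linked Kdm5d. Eif2s3y thus went against Xist at every stage, whereas Kdm5d went with Xist at GD9:00 and GD9:12. The part of embryo sex in the arsenic differences was not tested. Psmd10, the X-linked member, differed by 0.043 ± 0.16 at GD8:15 and by -0.21 ± 0.17 at GD9:00.

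The array probes limit every value here. Where a gene of the array had 2 tested probes (92 genes), the pair correlated over the 22 arrays with a median r of 0.0489, and 42 pairs were below 0, so a value stands for its probe. No member has a second probe to set beside it. Of the member values, 19 lay in stretches of low signal, 14 of them on control arrays of GD9:00, where up to 11.6% of probes did.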

How the data were processed

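The authors deposited 1 value per probe and array, an intensity on a linear scale. Background correction, scaling and software are not given in the sources used here. Per the deposited values, array means stood near 600 at GD8:15, 500 at GD9:00 and 1000 at GD9:12, and 838 values of 1 to 2 were read as placeholders (16 to 69 per array) and set to missing. Arrays carry no read depth, and their number limits the precision. Median log2 signal per array ran from 6.94 to 8.18.

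Values were log2-transformed and quantile-normalised. Probes with at least 2 values in each group and a mean above the lowest 25% were kept (7833 of 10500, with 59 lost on missing values). A model with 6 group means was fitted with limma 3.58.1 in R 4.3.3, with Benjamini-Hochberg adjustment over all 7833 probes and a threshold of 0.05. The script was tested on simulated data. Members, lists and tests were chosen with earlier results of these data known. Genes were named from the platform annotation. Any member may be named, and values by array are given for the 3 tested members of lowest p in each direction in each arsenic contrast and in control GD9:12 minus control GD8:15, for members past the threshold in any contrast, and for the immunoproteasome subunits and the activators Psme1 and Psme2 (Psmb8 and Psmb9 by range). Members whose groups did not overlap, and the pathway genes named, were picked after their values were seen. Alternatives covered scaling, filter, placeholders, array weights, title-code series as a block, the arms of each stage within 1 series, and left-out arrays. Masking of runs of low signal (running median over 21 probes 0.7 or more below the probes' level on the other arrays) was defined after seeing the data.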

Additional observations from a re-analysis of the deposited data

Results flagged for a closer look

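In 6 of the 113 groups of 4 arrays examined, 1 array stood apart from the others by a gap above Dixon's 95% critical value, which chance passes in about 1 group of 20. Psmb7 read 9.67 and Psmc6 read 8.18 on control GD8:15 replicate 3, the array of that group whose title code belongs to the series of the later stages. Psmc4 read 9.51 on control GD9:00 replicate 2, in a run of low signal, and Psmd12 read 13.12 on the same array. Psma2 read 8.34 and Psmc3 read 8.22 on arsenic GD9:12 replicate 4, both below the other 3 arrays. In the test of the difference of the arsenic effect between stages, 0 members were called by limma, with 2, 3 and 0 at an unadjusted p of 0.05 for GD9:00 minus GD8:15, GD9:12 minus GD9:00 and GD9:12 minus GD8:15.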

How the results depend on the processing

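No paired analysis was possible because the labels give no replicate numbers that the groups share. Under the authors' scaling the members called numbered 7 for control GD9:00 minus GD8:15, 17 for control GD9:12 minus GD9:00, 6 for control GD9:12 minus GD8:15 and 11 for arsenic GD9:12 minus GD9:00, against 4, 8, 3 and 1 after quantile normalisation. Of all probes 35.1%, 71.7%, 18.2% and 23.2% were called under that scaling. For control GD9:12 minus GD8:15 the core and regulatory medians were then 0.087 and 0.18, and 0.054 and 0.27 as ratios of group medians, against -0.59 and -0.32. Psme3 was 0.026 at GD9:00 and 0.19 on average under the authors' scaling, and 0.00446 and 0.20 as ratios of medians. Median centring gave a regulatory median of -0.040 at GD8:15 and -0.37 at GD9:00, a core median of -0.74 at GD9:00, control GD9:12 minus GD8:15 medians of -0.073 (core) and -0.026 (regulatory), and Psmc1 at -0.084 at GD9:00. With runs of low signal masked the regulatory median at GD9:00 was -0.12. With array weights 1 member was called for the average arsenic effect (0.166% of probes) and 1 for arsenic GD9:00 minus GD8:15 (11.3%). Weights called 13 for both control steps to GD9:12, 13 for arsenic GD9:12 minus GD9:00 and 11 for arsenic GD9:12 minus GD8:15. Of all probes they called 23.0% and 26.0% for the control steps from GD9:00 and from GD8:15, and 18.3% and 21.3% for the arsenic ones. The core median at GD9:00 was then 0.14, Psmb3 at GD9:12 0.15, Psmd12 at GD9:12 0.00815, Psmg2 at GD8:15 0.019 and Psme3 on average 0.021. The code series as a block tied GD8:15 to the later stages through control GD8:15 replicate 3 alone. With it 0 members were called for control GD9:00 minus GD8:15, control GD9:12 minus GD8:15 and arsenic GD9:12 minus GD8:15. Of all probes 35, 47 and 7 were called there. The regulatory median of control GD9:12 minus GD8:15 was then -0.54, and Psmg2 at GD8:15 was 0.00339. With the arms of each stage taken from 1 series, Psmg2 at GD8:15 had the same value. In that setting 1 member was called in each of the control comparisons with GD8:15. These comparisons are across series, since the setting leaves GD8:15 and the later stages in different ones. Without both arsenic arrays of replicate 3, control GD9:12 minus GD8:15 called 6, arsenic GD9:00 minus GD8:15 called 1 and arsenic GD9:12 minus GD9:00 called 6. As ratios of medians Psmg2 at GD8:15 was 0.058 and Psmd12 at GD9:12 0.00851. Leaving out 1 array at a time gave 1 to 6 calls for control GD9:00 minus GD8:15, 5 to 10 for control GD9:12 minus GD9:00, 1 to 4 for control GD9:12 minus GD8:15, 0 to 1 for arsenic GD9:00 minus GD8:15, 0 to 3 for arsenic GD9:12 minus GD9:00 and 4 to 8 for arsenic GD9:12 minus GD8:15. It gave a regulatory median at GD9:00 of -0.12 to 0.24, Psmd12 at GD9:12 of -0.15 to 0.037 and Psmb1 at GD9:12 of -0.37 to 0.058. The causes were not tested. Averaging probes of a gene was not run, since each member has 1 probe.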
